A study of Drosophila melanogaster with 12 samples.

Results

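Ovaries of fruit flies (Drosophila melanogaster) in which RNA interference (RNAi) was directed at mCherry were compared with ovaries of bam females whose labels give no RNAi treatment. The comparison uses 6 of the 12 libraries of the series, chosen by title: the 3 mCherry RNAi females and the 3 Bam mutant females. The other 6 libraries are Sxl RNAi ovaries and bam testes, 3 of each, and are used below only to give levels. Both groups of ovaries have the strain label Bam mutant, so both carry a bam mutation, and Sxl was not targeted in either. The gonads came from flies 1 to 3 days old raised at 25 °C, the females were virgin, and the labels call the 3 samples of each genotype biological replicates. Neither group's bam alleles or parental stocks, nor the Gal4 driver and hairpin insertion, could be read from the labels. The study set bam males against bam females and Sxl RNAi against mCherry RNAi females, and the pair described here is the one in which neither sex nor Sxl was the variable.

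bam encodes a germline protein that lets the daughters of a germline stem cell leave the stem cell state. Without it, germaria fill with undifferentiated germ cells that divide and do not form egg chambers, surrounded by escort, follicle and muscle sheath cells of the somatic ovary. mCherry is a fluorescent protein gene that flies do not have, so a hairpin against it loads the RNAi machinery without a fly target and serves as the control for other hairpins. Such hairpins are carried on transgenes marked with wild-type copies of pigment genes, and crosses that bring driver, hairpin and bam alleles together mix the chromosomes of several stocks.

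Assigned reads numbered 25097969, 24274511 and 21501840 in mCherry RNAi replicates 1 to 3 and 20258167, 16517104 and 19116790 in bam replicates 1 to 3. Levels are scaled counts in CPM, a unit relative to the assigned reads of a library, and every pair of replicates differed beyond counting noise (chi-square per degree of freedom 9.32 to 129.5). The germ cell gene aub, which marks the labelled tissue, stood at 376, 343 and 413 CPM in mCherry RNAi ovaries, against 378, 396 and 417 CPM in bam ovaries, and the female germline gene ovo at 364, 264 and 436 CPM in mCherry RNAi ovaries, against 439, 408 and 324 CPM in bam ovaries, so both were abundant in every library. The late eggshell gene Cp15 had 17, 4 and 8 reads in mCherry RNAi ovaries and 2, 2 and 4 reads in bam ovaries, and the sperm tail gene Mst87F had 2, 2 and 0 reads in mCherry RNAi ovaries and 0, 2 and 0 reads in bam ovaries. One library of each group stood apart from its replicates. RNA of the mitochondrial genome summed to 49209, 90099.7 and 41536 CPM in mCherry RNAi ovaries and 44111, 45771 and 84348 CPM in bam ovaries, so mCherry RNAi replicate 2 and bam replicate 3 were the high ones. Their deviations from the group means correlated over genes at 0.62, and counts that rest on these libraries are given below also without both of them, a setting chosen after the data were seen.

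Of 9940 genes tested, 376 (3.78%) were higher in mCherry RNAi ovaries and 231 (2.32%) were lower, at an adjusted p under 0.05 in edgeR's quasi-likelihood test with Benjamini-Hochberg adjustment. That test and adjustment hold for every adjusted p below, and fold changes are mCherry RNAi over bam with a standard error (SE) on the log2 scale. In all 607 of these genes, the 3 mCherry RNAi values lay entirely above or below the 3 bam values. The test used the same values, so this is not separate evidence. Of all 9940 genes, 16.4% had all mCherry RNAi values above and 15.4% had them below. The log2 fold change exceeded 1 in size for 421 of them, and its median over all genes tested was -0.006. The calls depended on single libraries: 69 of the higher and 51 of the lower genes were called in each of the 6 fits that left out 1 library. Without mCherry RNAi replicate 1 the fit called 89 genes higher and 64 lower, without bam replicate 1 it called 98 and 81, and without bam replicate 2 it called 96 and 64. Without mCherry RNAi replicate 2 it called 226 higher, without mCherry RNAi replicate 3 102 lower, and without bam replicate 3 207 higher. Without both mCherry RNAi replicate 2 and bam replicate 3 the counts, of 10031 genes tested, were 903 and 905, which included 333 of the 376 and 222 of the 231 genes. No called gene changed direction in any fit that held it.

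**Figure D1:**
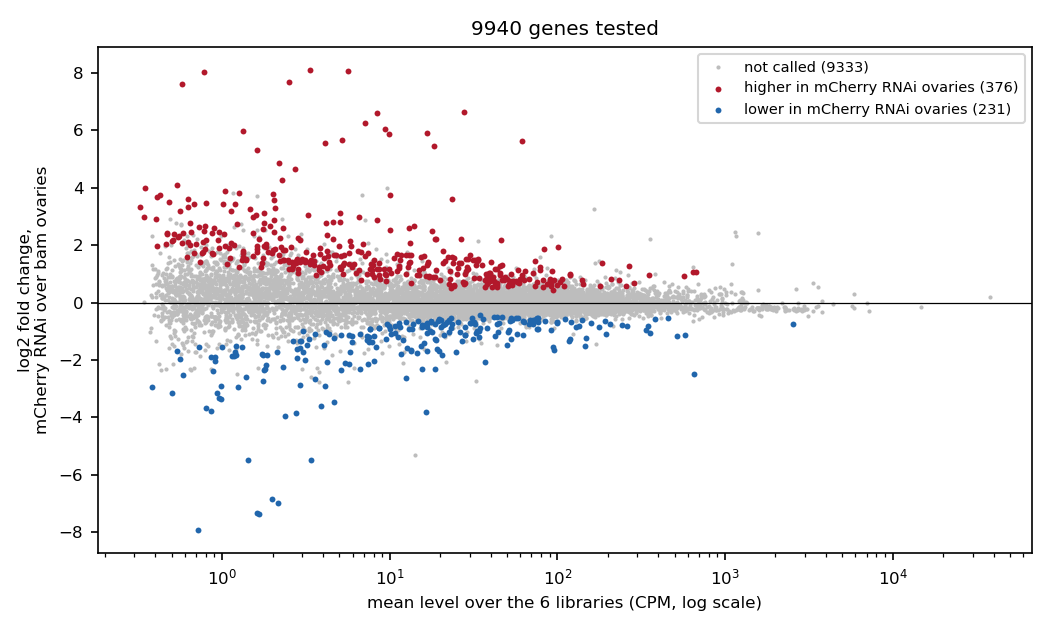
Each point is 1 of 9940 genes, with its mean level over the 6 libraries on the horizontal axis (CPM, log scale) and its log2 fold change of mCherry RNAi over bam ovaries on the vertical axis. Red points are the 376 genes called higher, blue points the 231 called lower and grey points the rest. The largest differences, beyond 4 on the log2 scale, are sparse in both directions and lie at low to middle levels.

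Of the genes that the study is about, CG15930 was called by 1 of the tools run and Sxl and Phf7 by neither. Sxl (FBgn0264270), the RNA-binding switch gene of female identity, stood at 517, 517 and 539 CPM in mCherry RNAi ovaries, against 487, 474 and 384 CPM in bam ovaries. The groups did not overlap, but the difference missed the threshold (log2 fold change 0.22, SE 0.14, adjusted p = 0.384, 95% interval -0.040 to 0.49). The 95% intervals in this paragraph use the normal quantile and are narrower than intervals that match the test would be. CG15930 (FBgn0029754), also named Tdrd5l, the Tudor-domain gene of male germ cells that Sxl represses, stood at 13.95, 17.3 and 18.6 CPM in mCherry RNAi ovaries, against 22.1, 29.96 and 24.1 CPM in bam ovaries. All 3 mCherry RNAi values were the lower ones, and the threshold was missed in edgeR (log2 fold change -0.61, SE 0.17, adjusted p = 0.0859, 95% interval -0.94 to -0.28) and passed in DESeq2 (adjusted p = 0.0238). Phf7, a male germline chromatin reader, overlapped between the groups at 71.2, 57.5 and 80.3 CPM in mCherry RNAi ovaries, against 68.6, 77.4 and 65.8 CPM in bam ovaries (log2 fold change -0.018, SE 0.15, adjusted p = 0.959, 95% interval -0.31 to 0.27). msl-2, a dosage compensation gene held off by Sxl in the soma of females, had 17.2, 14.1 and 14.2 CPM in mCherry RNAi ovaries, against 20.1, 18.2 and 14.02 CPM in bam ovaries (log2 fold change -0.20, SE 0.17, adjusted p = 0.552), and those values overlapped as well. None of the 24 genes tested from the list of sex determination genes and Sxl partners was called, with 2 at an unadjusted p under 0.05 and 1 called by DESeq2, and their median log2 fold change was -0.042. Over all 9940 genes, 2293 had an unadjusted p under 0.05, and DESeq2 called 743 higher and 519 lower.

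Residual bam RNA was lower in mCherry RNAi ovaries. It stood at 6.03, 4.15 and 5.57 CPM in mCherry RNAi ovaries, against 10.3, 9.32 and 10.1 CPM in bam ovaries, which do not overlap (log2 fold change -0.92, SE 0.20, adjusted p = 0.0414). The call was lost in each of the 6 fits that left out a library, with an adjusted p up to 0.126. nanos, a translational repressor that germline stem cells need, had 144, 173 and 152 CPM in mCherry RNAi ovaries, against 122, 119 and 175 CPM in bam ovaries, which overlap (log2 fold change 0.17, SE 0.18, adjusted p = 0.624). Of the 15 genes tested from the list of bam partners and germ cell identity, bam was the only one called, and the median of the list was -0.22. In bulk RNA, fewer cells of a type and less RNA per cell cannot be told apart.

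Genes that serve as visible markers in transgenic stocks were among those that differed. y (yellow, a cuticle pigment gene) had 3.27, 2.203 and 3.11 CPM in mCherry RNAi ovaries, against 0.196, 0.1805 and 0.654 CPM in bam ovaries. The bam values lay near 0 and all mCherry RNAi values were above 2 CPM (log2 fold change 3.04, SE 0.50, adjusted p = 0.0195). v (vermilion, an enzyme of the brown eye pigment pathway) had 4.41, 3.498 and 3.99 CPM in mCherry RNAi ovaries, against 0.244, 0.541 and 1.1998 CPM in bam ovaries, again without overlap (log2 fold change 2.58, SE 0.50, adjusted p = 0.0309). ry (rosy, xanthine dehydrogenase) had 4.14, 2.98 and 2.81 CPM in mCherry RNAi ovaries, against 0.685, 1.203 and 1.25 CPM in bam ovaries (log2 fold change 1.66, SE 0.32, adjusted p = 0.0319). These 3 were the genes called among 22 tested from the list of transgene and visible marker genes, which had a median log2 fold change of 0.45. w (white, the eye pigment transporter gene of most transgenes) was not called and overlapped, at 66.5, 59.9 and 63.9 CPM in mCherry RNAi ovaries, against 60.1, 73.2 and 97.2 CPM in bam ovaries (log2 fold change -0.28, SE 0.18, adjusted p = 0.42). The calls were fragile: that of y was lost without mCherry RNAi replicate 1 or bam replicate 1 or 2 (adjusted p up to 0.0769), that of v in every such fit except the one without bam replicate 3 (up to 0.121), and that of ry in all 6 (up to 0.114). Which marker genes the transgenes of these flies carry is not stated in the labels, and whether such copies account for these reads was not tested.

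The largest differences were in genes that were abundant in one control and near 0 in the other. By a cutoff set after their values were seen, 9 called genes had a mean under 0.5 CPM in bam ovaries and at least 5 CPM in mCherry RNAi ovaries, and 2, CG43797 and CG6034, had the opposite pattern. These 11 were called in each of the 6 fits that left out a library. The cutoff asks for a wide gap in these same libraries, so this is not separate evidence. One of the 9 is Sdic3, a member of a family of near-identical copies. Copies in such families are left out of the 12 largest increases and decreases described next and are summed further on. Hsp70Ba (log2 fold change 6.66), Sdic3 (4.67) and Sdic1 (-2.68) would otherwise have ranked among them. Lasp (FBgn0063485), which encodes an actin-binding LIM and SH3 domain protein of muscle sarcomeres, stood at 17.6, 13.9 and 18.1 CPM in mCherry RNAi ovaries, against 0.147, 0.1805 and 0.164 CPM in bam ovaries. The spread within each group was small beside the difference (log2 fold change 6.62, SE 0.25, adjusted p = 7.6e-05). Syt4, a synaptotagmin that acts in vesicle release, had 21.4, 14.3 and 22.9 CPM in mCherry RNAi ovaries, against 0.391, 0.421 and 0.164 CPM in bam ovaries (log2 fold change 5.89, SE 0.36, adjusted p = 0.000767). Ance-3, a gene related to angiotensin-converting enzyme, had 14.98, 7.04 and 8.68 CPM in mCherry RNAi ovaries, against 0.342, 0.1203 and 0.109 CPM in bam ovaries, and mCherry RNAi replicate 1 was the highest (log2 fold change 5.66, SE 0.52, adjusted p = 0.00266). CG30076, a gene for which no role is given here, had 16.8, 19.2 and 19.1 CPM in mCherry RNAi ovaries, against 0.293, 0.301 and 0.218 CPM in bam ovaries, with little spread in either group (log2 fold change 6.06, SE 0.22, adjusted p = 7.4e-05).

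CG31683 had 800 reads in mCherry RNAi ovaries and 2 in bam ovaries, at 9.97, 13.9 and 9.82 CPM in mCherry RNAi ovaries, against 0, 0.0602 and 0.0545 CPM in bam ovaries. The ratio of the summed and scaled counts was 311 (95% exact binomial interval 85.7 to 2570.3, counting error only). CG18853 had 472 reads against 1, at 6.11, 7.17 and 6.62 CPM in mCherry RNAi ovaries, against 0, 0.0602 and 0 CPM in bam ovaries, with a ratio of 367 (95% exact binomial interval 65.5 to 14513, counting error only). Both genes were thus at the limit of detection in bam ovaries. CG12522 had 11.1, 19.1 and 12.1 CPM in mCherry RNAi ovaries, against 0.244, 0.0602 and 0.218 CPM in bam ovaries (log2 fold change 6.25, SE 0.44, adjusted p = 0.00108), and CG7900 had 31.9, 43.7 and 22.8 CPM in mCherry RNAi ovaries, against 0.489, 0.481 and 0.654 CPM in bam ovaries (log2 fold change 5.90, SE 0.33, adjusted p = 0.000507).

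Other genes of this class were also detected in bam ovaries, at low levels. Nplp3, which encodes a neuropeptide-like precursor, was the most abundant of the 12 increases, at 119.7, 135 and 108 CPM in mCherry RNAi ovaries, against 3.03, 2.29 and 1.96 CPM in bam ovaries. The groups lay far apart compared with their spread (log2 fold change 5.63, SE 0.20, adjusted p = 7.4e-05). Dscam4, a cell adhesion gene of the Down syndrome cell adhesion molecule family, had 39.5, 22.6 and 45.3 CPM in mCherry RNAi ovaries, against 0.831, 1.02 and 0.5999 CPM in bam ovaries, with mCherry RNAi replicate 2 the lowest of its group (log2 fold change 5.45, SE 0.35, adjusted p = 0.00105). Its paralogue Dscam3, named here after its values were seen, had 10.3, 5.96 and 11.1 CPM in mCherry RNAi ovaries, against 1.47, 0.902 and 0.764 CPM in bam ovaries (log2 fold change 3.11, SE 0.36, adjusted p = 0.00669). CG8563 had 18.01, 23.9 and 14.03 CPM in mCherry RNAi ovaries, against 1.12, 1.68 and 1.31 CPM in bam ovaries (log2 fold change 3.77, SE 0.28, adjusted p = 0.00139).

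Among the 12 decreases were genes of the oocyte. alphaTub67C, the maternal alpha-tubulin, stood at 6.504, 5.23 and 7.24 CPM in mCherry RNAi ovaries, against 31.2, 26.7 and 35.6 CPM in bam ovaries, so that all mCherry RNAi values were below 8 CPM and all bam values above 26 CPM (log2 fold change -2.30, SE 0.18, adjusted p = 0.00172). mtrm (matrimony), which inhibits Polo kinase in the meiotic oocyte, had 2.13, 1.77 and 2.81 CPM in mCherry RNAi ovaries, against 9.68, 11.7 and 12.1 CPM in bam ovaries (log2 fold change -2.31, SE 0.23, adjusted p = 0.00381). Tsf1, a transferrin secreted by the fat body, was the most abundant gene in this group, at 121, 297 and 174 CPM in mCherry RNAi ovaries, against 1037, 1118 and 1154 CPM in bam ovaries. mCherry RNAi replicate 2 was the highest of its group and still far below the bam libraries (log2 fold change -2.48, SE 0.32, adjusted p = 0.00977). lncRNA:CR44289, a long noncoding RNA, had 2.09, 1.9003 and 2.54 CPM in mCherry RNAi ovaries, against 34.3, 32.5 and 25.8 CPM in bam ovaries (log2 fold change -3.82, SE 0.19, adjusted p = 0.000329).

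The remaining decreases included genes that were near 0 in mCherry RNAi ovaries. CG43797 had 0.158, 0.1296 and 0.132 CPM in mCherry RNAi ovaries, against 4.69, 6.26 and 8.89 CPM in bam ovaries (log2 fold change -5.50, SE 0.38, adjusted p = 0.00108), and CG6034 had 0.355, 0.346 and 0.351 CPM in mCherry RNAi ovaries, against 5.13, 3.37 and 6.93 CPM in bam ovaries (log2 fold change -3.85, SE 0.36, adjusted p = 0.00275). esn (espinas), a relative of the planar polarity gene prickle, had 0.867, 0.605 and 0.833 CPM in mCherry RNAi ovaries, against 9.05, 8.96 and 7.58 CPM in bam ovaries (log2 fold change -3.46, SE 0.24, adjusted p = 0.00108). The serotonin receptor gene 5-HT1B had 0.907, 1.08 and 0.877 CPM in mCherry RNAi ovaries, against 8.95, 8.302 and 4.53 CPM in bam ovaries, with bam replicate 3 the lowest of its group (log2 fold change -2.92, SE 0.33, adjusted p = 0.00598). CG6830 had 2.76, 3.37 and 4.298 CPM in mCherry RNAi ovaries, against 23.2, 22.02 and 19.5 CPM in bam ovaries (log2 fold change -2.63, SE 0.20, adjusted p = 0.00162), and CG43120 had 1.06, 0.346 and 0.307 CPM in mCherry RNAi ovaries, against 5.43, 8.18 and 7.85 CPM in bam ovaries (log2 fold change -3.61, SE 0.50, adjusted p = 0.0111). These calls, like those of all other genes named from Lasp onward, held in each fit without 1 library. CG17211 was the exception among the 24. It had 1.104, 0.648 and 0.307 CPM in mCherry RNAi ovaries, against 5.28, 6.92 and 3.27 CPM in bam ovaries (log2 fold change -2.89, SE 0.49, adjusted p = 0.0218), and its call was lost without mCherry RNAi replicate 2 or bam replicate 1 or 2 (adjusted p up to 0.0698).

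**Figure D2:**
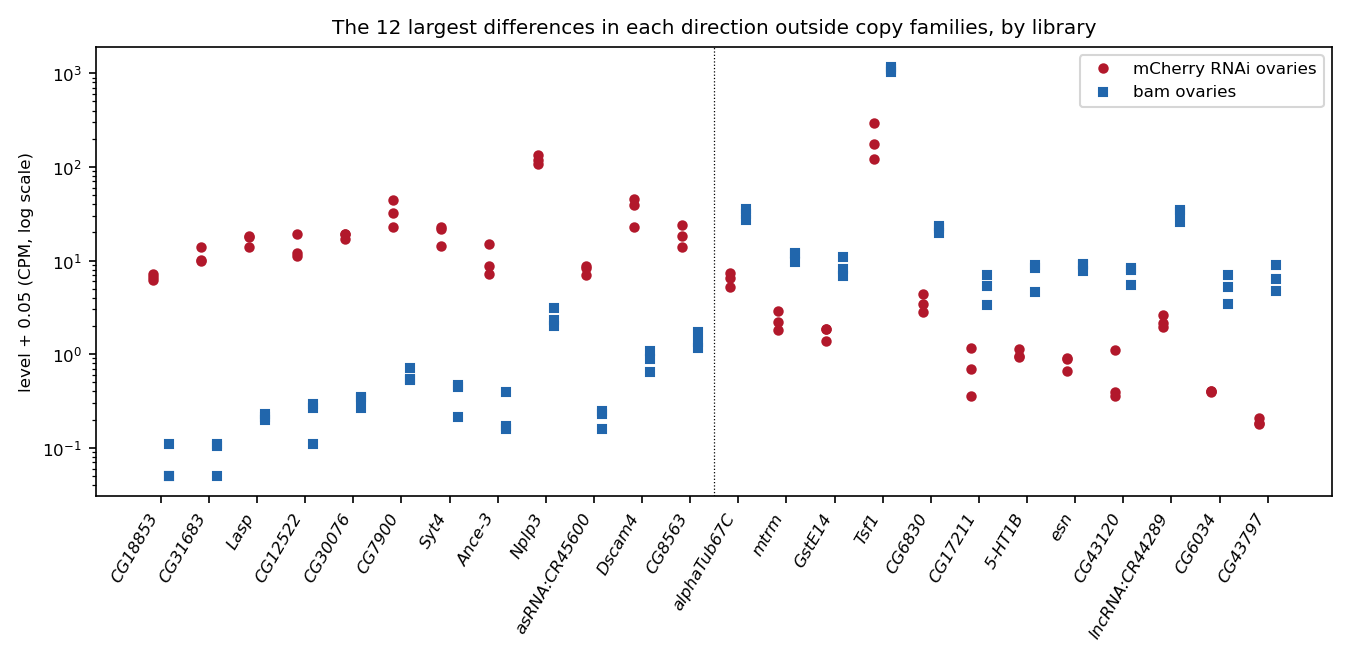
For the 12 largest increases (left of the dotted line) and the 12 largest decreases (right) outside families of near-identical copies, each point is the level of a gene in 1 library, in CPM plus 0.05 on a log scale. Red circles are the 3 mCherry RNAi ovary libraries and blue squares the 3 bam ovary libraries. The groups do not overlap for any of the 24 genes, because the choice of genes required it.

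The Sxl RNAi ovaries, the other RNAi group of the series, give further levels for these genes. They are described without a test, because setting Sxl RNAi ovaries against bam ovaries would use the same bam libraries again, and the CPM in this paragraph are scaled over all 12 libraries. For most of the 12 increases the Sxl RNAi values resembled those of mCherry RNAi ovaries. Lasp stood at 16.8, 13.7 and 18.01 CPM in mCherry RNAi ovaries and 15.1, 19.2 and 16.3 CPM in Sxl RNAi ovaries, against 0.143, 0.176 and 0.1605 CPM in bam ovaries. Nplp3 stood at 114, 133 and 107 CPM in mCherry RNAi ovaries and 176, 105 and 113 CPM in Sxl RNAi ovaries, against 2.95, 2.23 and 1.93 CPM in bam ovaries. Dscam4 stood at 37.8, 22.3 and 45.1 CPM in mCherry RNAi ovaries and 30.4, 50.3 and 49.3 CPM in Sxl RNAi ovaries, against 0.809, 0.999 and 0.588 CPM in bam ovaries. The exceptions were CG30076, with 0.476, 0.611 and 0.615 CPM in Sxl RNAi ovaries, and asRNA:CR45600, with 0.0595, 0.163 and 0.112 CPM, both close to the bam values. Dscam3 stood at 0.476, 0.448 and 0.559 CPM in Sxl RNAi ovaries. Among the decreases, Gr98b, a gustatory receptor gene, was near 0 in both RNAi groups and in testes (0, 0.0427 and 0 CPM in mCherry RNAi ovaries, 0.0595, 0 and 0.0559 CPM in Sxl RNAi ovaries, 0, 0 and 0 CPM in bam testes), against 3.62, 3.12 and 2.94 CPM in bam ovaries. mtrm lay between the other ovary groups in Sxl RNAi ovaries, at 6.43, 5.78 and 4.59 CPM, and alphaTub67C likewise, at 15.9, 17.1 and 13.03 CPM. CG6830 differed within the Sxl RNAi ovaries themselves, at 27.2, 1.303 and 2.18 CPM.

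**Figure D3:**
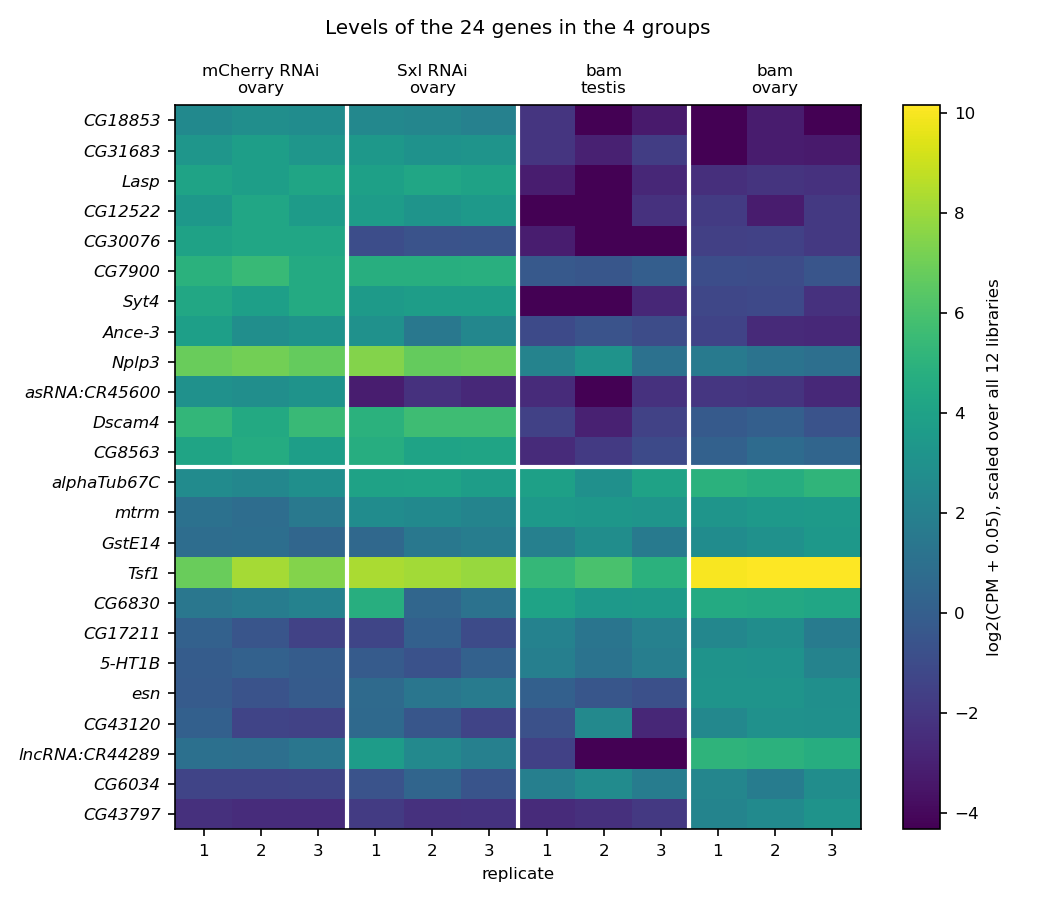
Colour gives log2(CPM + 0.05), scaled over all 12 libraries, for the 24 genes with the largest differences outside families of near-identical copies (rows; the 12 increases above the white line). Columns are replicates 1 to 3 of mCherry RNAi ovaries, Sxl RNAi ovaries, bam testes and bam ovaries. Most increases are bright in both RNAi groups and dark in both bam groups without RNAi, while CG30076 and asRNA:CR45600 are bright in mCherry RNAi ovaries alone.

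Several of the largest differences lay in groups of neighbouring genes. Of the 369 higher genes with a position on a chromosome arm, 20.1% had another higher gene starting within 10 kb, against 9.13% of all 9719 tested genes with a position. Of the 227 lower genes, 17.6% had a lower neighbour, against 6.08% of all. Positions are in build BDGP6. CG12522 lies beside CG32073 on chromosome 3L, and CG8563 beside CG8564 (3L:7385648-7396013). CG8564 had 2.92, 2.63 and 1.49 CPM in mCherry RNAi ovaries, against 0.196, 0.241 and 0.0545 CPM in bam ovaries (log2 fold change 3.80, SE 0.51, adjusted p = 0.0102). The genes Vajk1 and Vajk2 lie inside Ance-3 on the opposite strand (2L:13914725-13956188), and Vajk1 had 1.81, 1.9003 and 2.15 CPM in mCherry RNAi ovaries, against 0.0978, 0.1203 and 0.164 CPM in bam ovaries (log2 fold change 3.89, SE 0.34, adjusted p = 0.00214). asRNA:CR45600 (3R:15136985-15140121) overlaps CG6912 and CG3987. asRNA:CR45600 had 8.36, 6.996 and 8.73 CPM in mCherry RNAi ovaries, against 0.196, 0.1805 and 0.109 CPM in bam ovaries (log2 fold change 5.58, SE 0.30, adjusted p = 0.00043), and CG6912 had 33.9, 27.5 and 31.5 CPM in mCherry RNAi ovaries, against 7.04, 5.17 and 7.64 CPM in bam ovaries (log2 fold change 2.22, SE 0.18, adjusted p = 0.0018). The library kit does not mark strand, so reads in overlapping exons of such genes cannot be told apart.

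Neighbours also shared decreases. lncRNA:CR44289 (3R) lies with lncRNA:CR44288 and Gr98b in a stretch of 3R:27535831-27543888 in which all 3 were lower. Gr98b had 1 read in mCherry RNAi ovaries and 184 in bam ovaries, at 0, 0.0432 and 0 CPM in mCherry RNAi ovaries, against 3.72, 3.19 and 2.9995 CPM in bam ovaries (adjusted p = 0.00176). CG6034 lies between CG7460 and Adgf-A (3L:17740540-17764158), which encodes an adenosine deaminase-related growth factor. Adgf-A, whose span holds its paralogue Adgf-A2 on the same strand, had 19.6, 20.3 and 22.3 CPM in mCherry RNAi ovaries, against 52.2, 46.7 and 43.7 CPM in bam ovaries (log2 fold change -1.20, SE 0.12, adjusted p = 0.00346), and CG7460 had 0.6701, 0.777 and 0.526 CPM in mCherry RNAi ovaries, against 2.64, 3.13 and 3.22 CPM in bam ovaries (log2 fold change -2.17, SE 0.27, adjusted p = 0.00769). CG18853 on chromosome 2R, which overlaps Prosalpha1R on the opposite strand, was near 0 in bam ovaries. The adjacent DNA photolyase gene phr differed in the other direction, at 47.3, 50.96 and 40.9 CPM in mCherry RNAi ovaries, against 133, 135 and 168 CPM in bam ovaries (log2 fold change -1.65, SE 0.15, adjusted p = 0.00237). Whether the counting assigned reads to the wrong one of these genes was not tested. These neighbours were picked out after their values were seen. Of the calls in this paragraph and the last, that of lncRNA:CR44288 was lost in all fits without 1 library except that without mCherry RNAi replicate 2 (adjusted p up to 0.143).

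Each chromosome arm held called genes, and 1 stretch at the start of 2R held them densely. Called genes made up 5.84% of the 1694 genes tested on X, 6.83% of 1727 on 2L, 6.53% of 1991 on 2R, 6.58% of 1868 on 3L, 5.24% of 2349 on 3R and 3.33% of 90 on chromosome 4. Over 118 windows of 1 Mb with at least 20 genes tested, the share called ranged between 0% and 13.9%, with a median of 5.35%. Another 16 windows had fewer genes tested. In 1 of these, 2R between 1 and 2 Mb, 8 of 11 genes tested (72.7%) were called, 7 lower and 1 higher. The other 15 together had 8 of 109 called (7.34%). Of the 8 genes, which were looked at because of this share, CR40190 and lncRNA:CR44042 kept their calls in each fit without 1 library. CR40190 had 7.804, 8.12 and 7.94 CPM in mCherry RNAi ovaries, against 21.3, 24.2 and 22.5 CPM in bam ovaries (log2 fold change -1.51, SE 0.12, adjusted p = 0.00177). lncRNA:CR44042 had 7.53, 5.398 and 6.27 CPM in mCherry RNAi ovaries, against 20.4, 19.97 and 16.5 CPM in bam ovaries (log2 fold change -1.57, SE 0.18, adjusted p = 0.00624). rl (rolled), the MAP kinase gene of the same window, had 95.5, 97.7 and 88.5 CPM in mCherry RNAi ovaries, against 136, 141 and 168 CPM in bam ovaries, also without overlap (log2 fold change -0.66, SE 0.12, adjusted p = 0.0288). rl lost its call without mCherry RNAi replicates 1, 2 or 3 or bam replicates 1 or 2, with an adjusted p up to 0.118. On X, 51 genes were higher and 48 lower, whereas on 2L these numbers were 81 and 37. No test of the differences between arms was made.

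Copies of near-identical genes are given as families, because the counting could split or drop their reads. The Sdic genes on X, which arose by tandem duplication and encode a sperm dynein chain, were called in opposite directions (Sdic2 and Sdic3 higher, Sdic1 lower). Their sum over 4 members was 11.4, 8.94 and 11.6 CPM in mCherry RNAi ovaries and 6.11, 8.06 and 5.73 CPM in bam ovaries, so the summed values did not overlap but lay close together. Of the cytochrome P450 pair Cyp12d1, Cyp12d1-d was called lower, while the pair summed to 4.77, 7.82 and 2.41 CPM in mCherry RNAi ovaries and 7.53, 3.37 and 8.02 CPM in bam ovaries, which overlap.

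Gene lists were read by the number of members called in each direction, beside the 3.78% higher and 2.32% lower among all genes. The fit without mCherry RNAi replicate 2 and bam replicate 3 called 903 higher and 905 lower of all 10031 genes it tested. These shares are larger than with all 6 libraries, so list counts from that fit are to be read beside them. Likewise, DESeq2 called 743 higher and 519 lower of 9940 genes, and 2293 had an unadjusted p under 0.05 in edgeR. With edgeR and all 6 libraries, 28 of 642 genes tested over all 32 lists were higher and 19 lower. Of these 47, 8 were called in every fit without 1 library: spo, sro, Tsf1, mtrm, Cyp6a14, Cyp6a2, Cyp12d1-d and Wnt2. Any other list gene called was lost without at least 1 library.

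**Figure D4:**
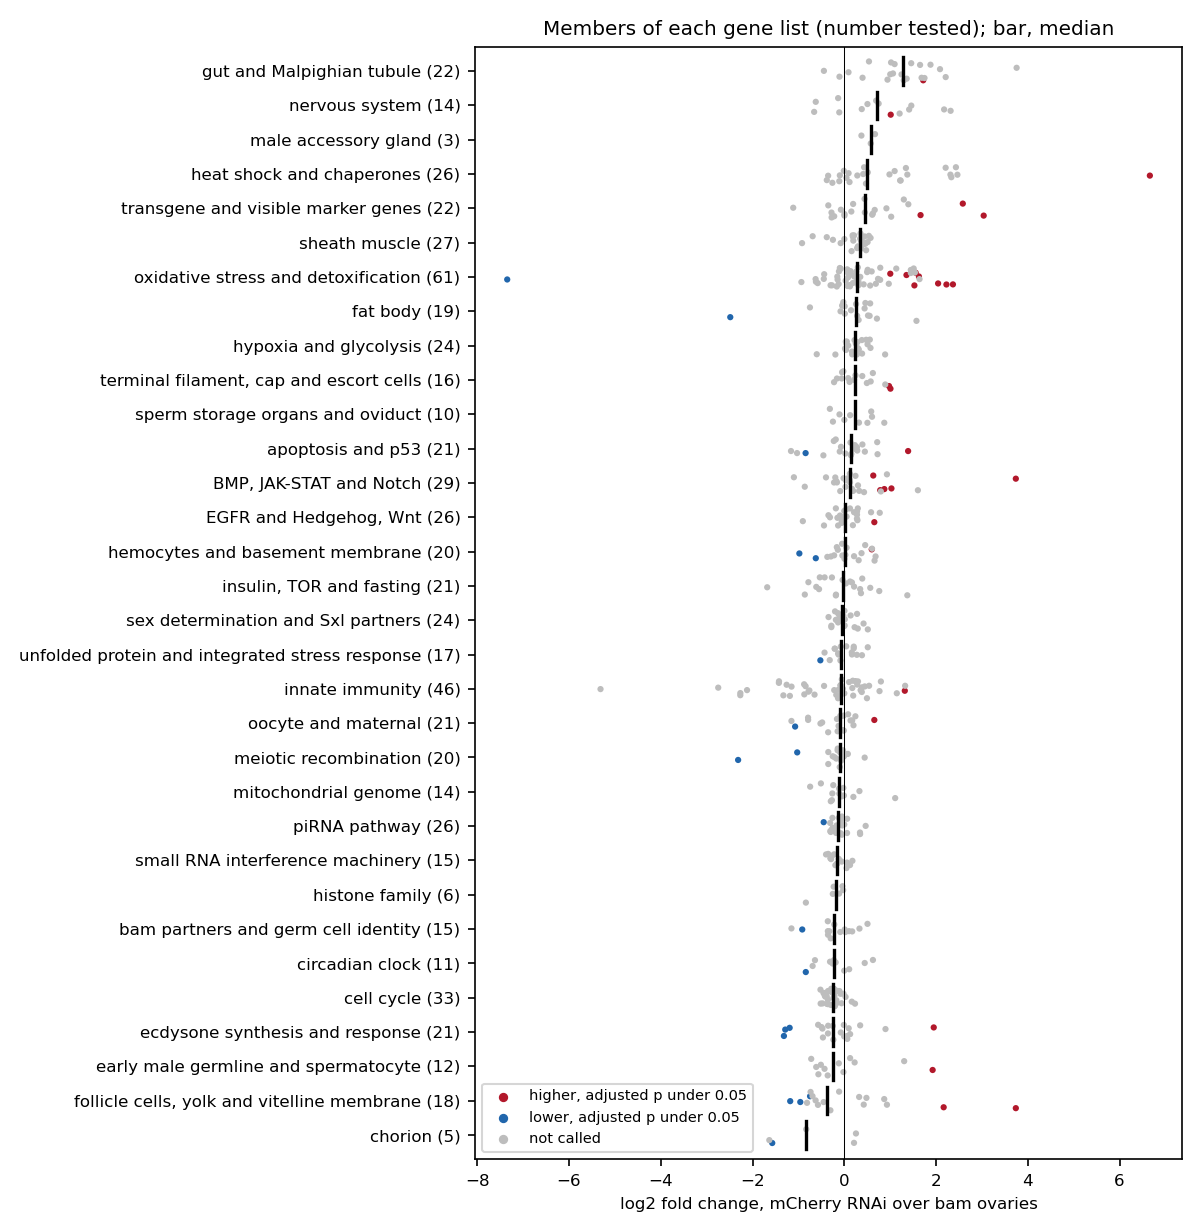
Each row is 1 of the gene lists with at least 3 members tested (number in brackets), ordered by median, and each point is the log2 fold change of a member, mCherry RNAi over bam ovaries. Red points were called higher, blue points lower and grey points neither, and the black bar is the median of the list. The highest median is that of the gut and Malpighian tubule list, 1.27, and the lowest that of the chorion list, -0.83.

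Genes of meiosis and the oocyte showed few calls, all but that of grk being decreases. Besides mtrm, hdm (hold'em), which acts in meiotic crossing over, was lower among 20 genes tested for meiotic recombination, at 12.8, 10.7 and 11.7 CPM in mCherry RNAi ovaries, against 21.7, 21.7 and 28.3 CPM in bam ovaries (log2 fold change -1.03, SE 0.16, adjusted p = 0.0165). hdm lost its call without mCherry RNAi replicates 1 or 3 or bam replicate 2, with an adjusted p up to 0.059. The median of that list was -0.095. In the list of oocyte and maternal genes 1 of 21 was higher and 1 lower (median -0.087). grk (gurken), the ligand that the oocyte sends to follicle cells, had 27.6, 27.6 and 27.3 CPM in mCherry RNAi ovaries, against 15.7, 19.01 and 17.6 CPM in bam ovaries (log2 fold change 0.65, SE 0.12, adjusted p = 0.0238). grk lost its call without mCherry RNAi replicates 1, 2 or 3 or bam replicates 1 or 2, with an adjusted p up to 0.116. dhd (deadhead), the maternal thioredoxin, had 9.07, 11.4 and 11.97 CPM in mCherry RNAi ovaries, against 16.7, 24.4 and 27.1 CPM in bam ovaries (log2 fold change -1.07, SE 0.21, adjusted p = 0.0347). dhd lost its call without mCherry RNAi replicates 1, 2 or 3 or bam replicates 2 or 3, with an adjusted p up to 0.13. osk (oskar), which organises germ plasm, stood at 3.51, 1.77 and 3.51 CPM in mCherry RNAi ovaries, against 6.41, 6.497 and 6.65 CPM in bam ovaries, without overlap. It missed the threshold in edgeR (log2 fold change -1.15, SE 0.29, adjusted p = 0.0676) and passed it in DESeq2 (adjusted p = 0.004). Of 26 piRNA pathway genes, Panx, which acts in nuclear transposon silencing, was the 1 called. It had 30.4, 28.5 and 29.3 CPM in mCherry RNAi ovaries, against 40.9, 39.6 and 39.98 CPM in bam ovaries (log2 fold change -0.45, SE 0.10, adjusted p = 0.0408). Panx lost its call without any 1 of the 6 libraries, with an adjusted p up to 0.145. Of 12 genes of the early male germline and spermatocytes, kmg, a zinc finger gene that blocks somatic programmes in spermatocytes, was called higher at 6.15, 4.06 and 2.11 CPM in mCherry RNAi ovaries, against 1.22, 1.02 and 0.982 CPM in bam ovaries (log2 fold change 1.93, SE 0.42, adjusted p = 0.0447, call lost without mCherry RNAi replicates 1 or 2 or bam replicates 1, 2 or 3, with an adjusted p up to 0.137). The spermatocyte gene aly missed the threshold in edgeR (log2 fold change -0.51, SE 0.13, adjusted p = 0.0719) and passed it in DESeq2 (adjusted p = 0.0184).

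Yolk and vitelline membrane genes, which follicle cells express, included calls in both directions. Of 18 genes tested in the list of follicle cells, yolk and vitelline membrane, Vm26Ab, Vm34Ca and Yp2 were lower and Vml and upd2 higher, with a median of -0.38. Vm26Ab, a structural protein of the vitelline membrane, had 197, 243 and 246 CPM in mCherry RNAi ovaries, against 459.9, 412 and 461 CPM in bam ovaries (log2 fold change -0.96, SE 0.14, adjusted p = 0.0125). Vm26Ab lost its call without mCherry RNAi replicate 1 or bam replicate 1, with an adjusted p up to 0.059. Vm34Ca, another, had 234, 395 and 316 CPM in mCherry RNAi ovaries, against 740.1, 596 and 803 CPM in bam ovaries (log2 fold change -1.18, SE 0.22, adjusted p = 0.0281). Vm34Ca lost its call without mCherry RNAi replicates 1 or 3 or bam replicates 1, 2 or 3, with an adjusted p up to 0.094. Vml (Vitelline membrane-like), in contrast, was higher, at 61.6, 70.6 and 95.1 CPM in mCherry RNAi ovaries, against 22.7, 21.1 and 6.76 CPM in bam ovaries. Its values did not overlap, and bam replicate 3 was the lowest (log2 fold change 2.17, SE 0.43, adjusted p = 0.0341). Vml lost its call without mCherry RNAi replicates 1, 2 or 3 or bam replicates 1 or 2, with an adjusted p up to 0.0895. Yp2, a yolk protein gene, had 1791, 2078 and 1837 CPM in mCherry RNAi ovaries, against 3629, 3033 and 2904 CPM in bam ovaries (log2 fold change -0.75, SE 0.16, adjusted p = 0.0423, call lost without any 1 of the 6 libraries, with an adjusted p up to 0.177). Yp1 missed the threshold (-0.45, SE 0.15, adjusted p = 0.127). Yp3 had more reads in mCherry RNAi ovaries, 26609, 36237 and 19152 against 15227, 14844 and 15289, but its CPM, which are scaled for depth, overlapped. tj (traffic jam), a transcription factor of the somatic cells that touch germ cells, stood at 135, 133 and 197 CPM in mCherry RNAi ovaries, against 277, 313 and 226 CPM in bam ovaries, again without passing (log2 fold change -0.81, SE 0.20, adjusted p = 0.0646). Of the 18, 4 had all mCherry RNAi values above all bam values and 8 had them below, beside 16.4% and 15.4% of all genes. The summed level of the list, in which Yp2 had the most reads, was 5523, 6686 and 5733 CPM in mCherry RNAi ovaries and 8813, 7935 and 7413 CPM in bam ovaries. Of 5 chorion genes tested, Cp7Fb was lower, at 1.42, 1.25 and 1.71 CPM in mCherry RNAi ovaries, against 5.13, 3.97 and 3.93 CPM in bam ovaries (log2 fold change -1.57, SE 0.25, adjusted p = 0.0175). Cp7Fb lost its call without mCherry RNAi replicate 1 or bam replicates 1 or 2, with an adjusted p up to 0.0831.

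Early enzymes of ecdysone synthesis were lower. spo (spook), an enzyme of the early steps of the pathway, stood at 10.3, 11.3 and 10.9 CPM in mCherry RNAi ovaries, against 26.5, 25.3 and 27.4 CPM in bam ovaries. The 3 values of each group lay within 3 CPM of each other and the groups were far apart (log2 fold change -1.29, SE 0.12, adjusted p = 0.00237). sro (shroud), a dehydrogenase of the same early steps, had 9.302, 12.8 and 10.2 CPM in mCherry RNAi ovaries, against 26.2, 28.5 and 25.7 CPM in bam ovaries (log2 fold change -1.32, SE 0.15, adjusted p = 0.00669). shd (shade), which makes the active hormone 20-hydroxyecdysone, had 5.24, 5.398 and 3.03 CPM in mCherry RNAi ovaries, against 10.6, 10.05 and 10.6 CPM in bam ovaries (log2 fold change -1.19, SE 0.25, adjusted p = 0.039). shd lost its call without any 1 of the 6 libraries, with an adjusted p up to 0.114. GstE14 (noppera-bo), a glutathione transferase known for its part in ecdysteroid production and one of the 12 decreases above, had 1.81, 1.81 and 1.32 CPM in mCherry RNAi ovaries, against 6.698, 8.06 and 10.9 CPM in bam ovaries (log2 fold change -2.37, SE 0.27, adjusted p = 0.00616). Among 21 genes tested for ecdysone synthesis and response, spo, sro and shd were the lower ones, and GstE14 is not in the list. Eip78C, an ecdysone-induced nuclear receptor, was the 1 higher, at 5.01, 2.38 and 3.29 CPM in mCherry RNAi ovaries, against 0.929, 0.782 and 1.04 CPM in bam ovaries (log2 fold change 1.95, SE 0.35, adjusted p = 0.0238). Eip78C lost its call without mCherry RNAi replicates 1 or 3 or bam replicates 1, 2 or 3, with an adjusted p up to 0.101. The median of the list was -0.24, and without mCherry RNAi replicate 2 and bam replicate 3 it had 6 lower genes and 1 higher.

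Signalling genes of the germline niche were higher where they were called. Of 29 genes tested for the BMP, JAK-STAT and Notch pathways, 5 were higher and none lower, with a median of 0.12. Without mCherry RNAi replicate 2 and bam replicate 3, 6 were higher and 5 lower. wit (wishful thinking), a type II BMP receptor gene that overlaps dib on the opposite strand, had 34.7, 31.6 and 35.5 CPM in mCherry RNAi ovaries, against 22.9, 23.9 and 18.8 CPM in bam ovaries (log2 fold change 0.63, SE 0.13, adjusted p = 0.0376). wit lost its call without any 1 of the 6 libraries, with an adjusted p up to 0.142. Socs36E, which JAK-STAT signalling induces and which inhibits it, had 82.7, 94.02 and 61.4 CPM in mCherry RNAi ovaries, against 49.1, 41.6 and 39.3 CPM in bam ovaries (log2 fold change 0.87, SE 0.18, adjusted p = 0.0369). Socs36E lost its call without mCherry RNAi replicates 1 or 2 or bam replicates 1, 2 or 3, with an adjusted p up to 0.131. upd2, a JAK-STAT ligand gene, was barely detected, with 22, 21 and 14 reads in mCherry RNAi ovaries and 0, 0 and 3 reads in bam ovaries (adjusted p = 0.0452). upd2 lost its call without mCherry RNAi replicates 1, 2 or 3 or bam replicates 1 or 2, with an adjusted p up to 0.131. E(spl)m3-HLH, a Notch target gene, had 125, 98.6 and 88.6 CPM in mCherry RNAi ovaries, against 52.4, 62.5 and 66.5 CPM in bam ovaries (log2 fold change 0.78, SE 0.16, adjusted p = 0.0395). E(spl)m3-HLH lost its call without mCherry RNAi replicates 1 or 2 or bam replicates 1, 2 or 3, with an adjusted p up to 0.134. E(spl)mbeta-HLH, another, had 77.2, 52.1 and 53.6 CPM in mCherry RNAi ovaries, against 23.6, 29.6 and 36.6 CPM in bam ovaries (log2 fold change 1.03, SE 0.22, adjusted p = 0.0413). E(spl)mbeta-HLH lost its call without mCherry RNAi replicates 1, 2 or 3 or bam replicates 1 or 2, with an adjusted p up to 0.138.

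In the list of terminal filament, cap and escort cells, the somatic cells that house germline stem cells and their daughters, 2 of 16 genes were higher and none lower (median 0.23). Wnt2, a Wnt ligand, had 50.1, 45.4 and 54.4 CPM in mCherry RNAi ovaries, against 27.3, 25.7 and 21.6 CPM in bam ovaries, so the groups lay about 1 log2 step apart with little spread (log2 fold change 1.01, SE 0.13, adjusted p = 0.00986). GstS1, a glutathione transferase, had 488, 409 and 499.996 CPM in mCherry RNAi ovaries, against 255, 237 and 219 CPM in bam ovaries (log2 fold change 0.98, SE 0.13, adjusted p = 0.0107). GstS1 lost its call without mCherry RNAi replicate 1 or bam replicate 2, with an adjusted p up to 0.0583. The list held bab1, at 10.4, 8.72 and 9.999 CPM in mCherry RNAi ovaries, against 10.7, 9.205 and 7.58 CPM in bam ovaries, and ptc, at 73.7, 48.5 and 72.8 CPM in mCherry RNAi ovaries, against 70.8, 59.7 and 37.7 CPM in bam ovaries, which overlapped between the groups. Of 26 genes tested for the EGFR, Hedgehog and Wnt pathways, grk alone was called.

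Detoxification genes had the largest number of calls of any list and were also the list with the most genes tested. The share called higher was larger in the BMP, JAK-STAT and Notch list (17.2%) and in the list of transgene and visible marker genes (13.6%). Of 61 detoxification genes tested, 8 were higher (13.1%) and 1, Cyp12d1-d of the pair above, was lower (1.64%), with a median of 0.28. With mCherry RNAi replicate 2 and bam replicate 3 left out, 10 were higher and 2 lower. Cyp6a2, a cytochrome P450 linked to insecticide resistance, had 10.4, 14.9 and 8.42 CPM in mCherry RNAi ovaries, against 2.79, 2.47 and 2.89 CPM in bam ovaries, which do not overlap (log2 fold change 2.04, SE 0.26, adjusted p = 0.00813). Cyp6a14, another P450 gene, had 8.32, 6.996 and 8.03 CPM in mCherry RNAi ovaries, against 2.69, 2.29 and 2.56 CPM in bam ovaries (log2 fold change 1.63, SE 0.19, adjusted p = 0.00666). GstD3, a glutathione transferase gene, had 34.8, 40.7 and 16.7 CPM in mCherry RNAi ovaries, against 5.92, 6.26 and 7.53 CPM in bam ovaries, with mCherry RNAi replicate 3 the lowest of its group (log2 fold change 2.23, SE 0.33, adjusted p = 0.0148). GstD3 lost its call without mCherry RNAi replicate 1 or bam replicates 1 or 2, with an adjusted p up to 0.0621. The others were GstD10 beside GstD3, Cyp6a19 beside Cyp6a20, Cyp6d2 and GstE1, with log2 fold changes of 2.37, 1.56, 1.53, 1.36 and 1.00 (adjusted p = 0.0363, 0.022, 0.0287, 0.0297 and 0.0479). Each of these calls was lost without mCherry RNAi replicate 1 or 2 or bam replicate 1 or 2, and all but that of Cyp6a20 also without bam replicate 3, with adjusted p up to 0.122, 0.0921, 0.108, 0.108 and 0.16. Neighbouring members of these P450 and transferase clusters resemble each other in sequence.

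Heat shock genes varied widely between replicates of a group. The Hsp70 genes, whose 6 near-identical members encode the main inducible chaperone, summed to 921, 204 and 66.3 CPM in mCherry RNAi ovaries and 259, 22.4 and 185 CPM in bam ovaries. mCherry RNAi replicate 1 was the highest library and the other values overlapped. Hsp23, a small heat shock gene, had 3609, 1854 and 354 CPM in mCherry RNAi ovaries, against 440.4, 233 and 379 CPM in bam ovaries (log2 fold change 2.47, SE 0.74, adjusted p = 0.105, and 0.0392 in DESeq2). Hsp26, another, had 5599.7, 1954 and 465 CPM in mCherry RNAi ovaries, against 659, 207 and 619 CPM in bam ovaries (log2 fold change 2.43, SE 0.87, adjusted p = 0.152). In both, replicates 1 and 2 of the mCherry RNAi ovaries were above all bam libraries and replicate 3 lay within the bam range. stv (starvin), a cochaperone gene, had 1196, 348 and 212 CPM in mCherry RNAi ovaries, against 192, 93.9 and 94.5 CPM in bam ovaries, without overlap and without passing the threshold (log2 fold change 2.21, SE 0.66, adjusted p = 0.104). Of 26 genes tested, Hsp70Ba of the Hsp70 family was called higher (adjusted p = 0.0256) and none lower, and the median was 0.49. Hsp70Ba lost its call without mCherry RNAi replicate 2 or bam replicates 1, 2 or 3, with an adjusted p up to 0.125, and no gene of the list was called once mCherry RNAi replicate 2 and bam replicate 3 were both left out. Of 17 genes of the unfolded protein response, Atf6, one of its sensors, was lower, at 44.7, 47.03 and 48.6 CPM in mCherry RNAi ovaries, against 68.1, 70.7 and 62.6 CPM in bam ovaries (log2 fold change -0.52, SE 0.10, adjusted p = 0.0301). Atf6 lost its call without mCherry RNAi replicates 1, 2 or 3 or bam replicates 1 or 2, with an adjusted p up to 0.149.

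Few genes of cell death, the clock and RNAi itself were called by edgeR. rpr (reaper), which starts apoptosis, was higher, at 3.59, 5.01 and 3.46 CPM in mCherry RNAi ovaries, against 1.17, 1.62 and 1.7997 CPM in bam ovaries (log2 fold change 1.39, SE 0.28, adjusted p = 0.0352). rpr lost its call without any 1 of the 6 libraries, with an adjusted p up to 0.131. Corp, which is linked to p53, was lower, at 9.18, 7.601 and 7.98 CPM in mCherry RNAi ovaries, against 12.3, 14.7 and 17.5 CPM in bam ovaries (log2 fold change -0.84, SE 0.18, adjusted p = 0.0416, call lost without any 1 of the 6 libraries, with an adjusted p up to 0.135). rpr and Corp were the edgeR calls among 21 genes of apoptosis and p53. In the same list hid and skl pointed the opposite way to rpr, without overlap between the groups. Their log2 fold changes came to -1.03 (hid, SE 0.26) and -1.16 (skl, SE 0.29). Each missed the edgeR threshold (adjusted p = 0.0655 for hid, 0.0624 for skl) and passed in DESeq2 (0.00305 for hid, 0.00391 for skl). Of the 21, 5 had all mCherry RNAi values above all bam values and 6 had them below, beside 16.4% and 15.4% of all 9940 genes. DESeq2 called 6 of the 21, beside 743 higher and 519 lower of all genes. An unadjusted p under 0.05 was reached by 8 of the 21 and by 2293 of all genes. Without mCherry RNAi replicate 2 and bam replicate 3, 4 were higher and 3 lower, beside 903 higher and 905 lower of all 10031. tim (timeless) was the 1 gene called of 11 clock genes, at 120.3, 122 and 141 CPM in mCherry RNAi ovaries, against 247, 244 and 193 CPM in bam ovaries (log2 fold change -0.84, SE 0.14, adjusted p = 0.0213). tim lost its call without mCherry RNAi replicate 1 or bam replicates 1 or 2, with an adjusted p up to 0.103. Of 15 genes of the small RNA interference machinery edgeR called none and DESeq2 1 (1 at an unadjusted p under 0.05), with a median of -0.16. AGO2, the effector of hairpin-derived small RNAs, had 543, 559.7 and 578 CPM in mCherry RNAi ovaries, against 614, 677 and 632 CPM in bam ovaries (log2 fold change -0.19, SE 0.12, adjusted p = 0.385), and Dcr-2, which cuts long double-stranded RNA, had 200.4, 147 and 191 CPM in mCherry RNAi ovaries, against 264, 265 and 180.5 CPM in bam ovaries (log2 fold change -0.40, SE 0.20, adjusted p = 0.284). In the fit without mCherry RNAi replicate 2 and bam replicate 3, 5 of the 15 were lower and none higher, beside 905 lower and 903 higher of all 10031 genes.

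Blood cell and immune genes were mixed. NimC1, a phagocytosis receptor gene of hemocytes, had 55.2, 60.9 and 59.2 CPM in mCherry RNAi ovaries, against 87.8, 95.1 and 86.7 CPM in bam ovaries (log2 fold change -0.62, SE 0.10, adjusted p = 0.0186). NimC1 lost its call without mCherry RNAi replicates 1 or 3 or bam replicates 1 or 2, with an adjusted p up to 0.102. PPO2, a prophenoloxidase of crystal cells, was lower as well, at 22.3, 23.8 and 22.8 CPM in mCherry RNAi ovaries, against 50.4, 33.8 and 51.4 CPM in bam ovaries (log2 fold change -0.98, SE 0.17, adjusted p = 0.0238). PPO2 lost its call without mCherry RNAi replicates 1, 2 or 3 or bam replicates 1 or 3, with an adjusted p up to 0.103. eater, another phagocytosis receptor gene, was higher, at 25.5, 32.9 and 28.6 CPM in mCherry RNAi ovaries, against 18.6, 20.5 and 18.4 CPM in bam ovaries (log2 fold change 0.60, SE 0.13, adjusted p = 0.0479). eater lost its call without any 1 of the 6 libraries, with an adjusted p up to 0.171. These were the calls among 20 genes of hemocytes and basement membrane, with a median of 0.014 and summed levels of 9638, 7371 and 9496 CPM in mCherry RNAi ovaries and 9583, 10138 and 6230.3 CPM in bam ovaries. Of 46 immune genes, spz (spätzle), the ligand of Toll, was the 1 called, at 7.76, 9.63 and 5.13 CPM in mCherry RNAi ovaries, against 3.18, 2.95 and 2.89 CPM in bam ovaries (log2 fold change 1.32, SE 0.27, adjusted p = 0.0361). spz lost its call without mCherry RNAi replicates 1 or 2 or bam replicates 1, 2 or 3, with an adjusted p up to 0.131. Induced immune genes varied by library. edin, an induced immune gene, had 0.512, 0.1296 and 1.45 CPM in mCherry RNAi ovaries, against 3.57, 0.361 and 79.2 CPM in bam ovaries, with bam replicate 3 far above the rest, and was not called (adjusted p = 0.144). The summed level of the list was 1194, 1862 and 1377 CPM in mCherry RNAi ovaries and 988, 918 and 2275 CPM in bam ovaries, so mCherry RNAi replicate 2 and bam replicate 3 were the high libraries of their groups. Of 19 fat body genes Tsf1 was the 1 called by edgeR, and DESeq2 called 2. apolpp, the lipoprotein of the haemolymph, had 118, 143 and 92.9 CPM in mCherry RNAi ovaries, against 22.9, 65.5 and 30.8 CPM in bam ovaries, without overlap. It missed the threshold in edgeR (log2 fold change 1.57, SE 0.39, adjusted p = 0.063) and passed it in DESeq2 (adjusted p = 0.00067).

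Muscle genes leaned one way without calls. Of 27 genes tested for the muscle sheath, 13 had all mCherry RNAi values above all bam values and 1 had them below, beside 16.4% and 15.4% of all 9940 genes. edgeR called none of the 27, beside 3.78% and 2.32% of all genes. DESeq2, which called 743 higher and 519 lower of all 9940, called 3 of the 27. An unadjusted p under 0.05 was reached by 2293 of all genes and by 8 of the 27. Their median was 0.35, and their summed level was 19834, 22810.5 and 18384 CPM in mCherry RNAi ovaries and 16254, 17481 and 12822 CPM in bam ovaries. Mhc, the muscle myosin heavy chain, had 3171, 3106 and 2874 CPM in mCherry RNAi ovaries, against 2492, 2680.0 and 1494 CPM in bam ovaries (log2 fold change 0.46, SE 0.24, adjusted p = 0.306), and Act57B, a muscle actin, had 3969, 5045 and 3665 CPM in mCherry RNAi ovaries, against 3046, 3427 and 2272 CPM in bam ovaries (log2 fold change 0.54, SE 0.22, adjusted p = 0.198). Without mCherry RNAi replicate 2 and bam replicate 3, 6 of the 27 were higher and none lower, beside 903 higher and 905 lower of all 10031 genes. Lasp is not in the list, and its level differed by far more than that of any gene in it. In bam ovaries, where Mhc stood at 2492, 2680.0 and 1494 CPM, Lasp stood at 0.147, 0.1805 and 0.164 CPM.

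Markers of other tissues that dissection can carry along had few calls. In the list of gut and Malpighian tubule genes 20 of 22 had positive log2 fold changes, with a median of 1.27. One was called, mag (magro), a digestive lipase gene, at 1.73, 1.04 and 1.23 CPM in mCherry RNAi ovaries, against 0.244, 0.481 and 0.491 CPM in bam ovaries (log2 fold change 1.72, SE 0.39, adjusted p = 0.0491). mag lost its call without any 1 of the 6 libraries, with an adjusted p up to 0.16. The protease gene Jon65Aiv had 2.13, 4.36 and 31.7 CPM in mCherry RNAi ovaries, against 0.489, 1.14 and 1.1998 CPM in bam ovaries, with mCherry RNAi replicate 3 far above the rest (log2 fold change 3.76, SE 1.08, adjusted p = 0.0938, and 0.0128 in DESeq2). Summed over the list, mCherry RNAi libraries reached 266, 287 and 335 CPM, against 283, 314 and 242 CPM for bam libraries, which overlap. LManII had the most reads of the list in each library (mCherry RNAi: 4586, 3359, 3798, bam: 4736, 4177, 3430). The sum thus says little about the other members. Among the 22, mCherry RNAi values all exceeded the bam values in 7 genes and all fell short in 1 (16.4% and 15.4% of all genes). DESeq2 called 5, and 9 reached an unadjusted p under 0.05 (all genes: 743 higher and 519 lower, and 2293). Of 14 nervous system genes, nrv2, a subunit of the sodium pump, was called higher, at 149, 184 and 145 CPM in mCherry RNAi ovaries, against 72.3, 90.3 and 74.3 CPM in bam ovaries (log2 fold change 1.01, SE 0.15, adjusted p = 0.0145). nrv2 lost its call without mCherry RNAi replicate 1 or bam replicate 1, with an adjusted p up to 0.0646. The median of the list was 0.72, 10 of the 14 were positive, and 8 had all mCherry RNAi values above all bam values, beside 16.4% of all genes. Of the 14, 9 had an unadjusted p under 0.05, as had 2293 of all 9940 genes. DESeq2 called 3 of the 14, beside 743 higher and 519 lower of all genes. The synaptic gene brp (Bruchpilot) had 76, 25 and 30 reads in mCherry RNAi ovaries and 14, 13 and 9 reads in bam ovaries (adjusted p = 0.124). The glial gene repo had 105, 41 and 45 reads in mCherry RNAi ovaries and 16, 20 and 18 reads in bam ovaries (adjusted p = 0.0958). Neither overlapped in CPM, and neither passed the threshold. The neuronal gene elav overlapped (log2 fold change -0.13, SE 0.29, adjusted p = 0.828). The summed level of the list was 314, 328 and 293 CPM in mCherry RNAi ovaries and 228, 240.4 and 167 CPM in bam ovaries. edgeR called none of 10 genes of sperm storage organs and oviduct (2 at an unadjusted p under 0.05, 2 called by DESeq2). It called none of the 3 male accessory gland genes tested, nor did DESeq2, and none had an unadjusted p under 0.05. Of the 27 matched genes of that list, 24 were not tested and 3 had 0 reads in all 6 libraries. Ebp had 2, 0 and 0 reads in mCherry RNAi ovaries and 0, 1 and 55 in bam ovaries. Acp36DE had 7, 8 and 3 reads against 6, 13 and 30, so bam replicate 3 was the highest for both. Acp98AB, in contrast, had 15, 29 and 7 reads against 0, 3 and 7. The part of such cells in the differences above was not tested.

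Cell cycle genes leaned the other way. Of 33 tested, 19 had all mCherry RNAi values below all bam values and none had them above, beside the same 15.4% and 16.4% of all genes. edgeR called none, DESeq2 called 8 and 12 had an unadjusted p under 0.05, and the median was -0.24. Over all 9940 genes, to be set beside each list of this paragraph, DESeq2 called 743 higher and 519 lower. An unadjusted p under 0.05 was reached by 2293 of them. The fit without mCherry RNAi replicate 2 and bam replicate 3 called 11 of the 33 lower and none higher, beside 905 lower and 903 higher of all 10031 genes. CycB, the mitotic cyclin B, had 231, 168 and 222 CPM in mCherry RNAi ovaries, against 262, 276 and 258 CPM in bam ovaries (log2 fold change -0.36, SE 0.15, adjusted p = 0.205), while polo kinase overlapped, at 361, 288 and 374 CPM in mCherry RNAi ovaries, against 363, 374 and 344 CPM in bam ovaries (log2 fold change -0.080, SE 0.14, adjusted p = 0.783). The summed level of the list was 4324, 3819 and 4508 CPM in mCherry RNAi ovaries and 4999, 5042 and 4797 CPM in bam ovaries. None of 24 genes of hypoxia and glycolysis was called by edgeR, 3 were by DESeq2 and 9 had an unadjusted p under 0.05, and 22 had positive log2 fold changes (median 0.24). Of 21 genes of insulin, TOR and fasting edgeR called none, DESeq2 called 3 and 6 had an unadjusted p under 0.05 (median -0.037). Of 14 genes of the mitochondrial genome neither tool called any and none had an unadjusted p under 0.05 (median -0.11). Of 6 histone genes edgeR called none, DESeq2 called 1 and 1 had an unadjusted p under 0.05 (median -0.17).

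**Figure D5:**
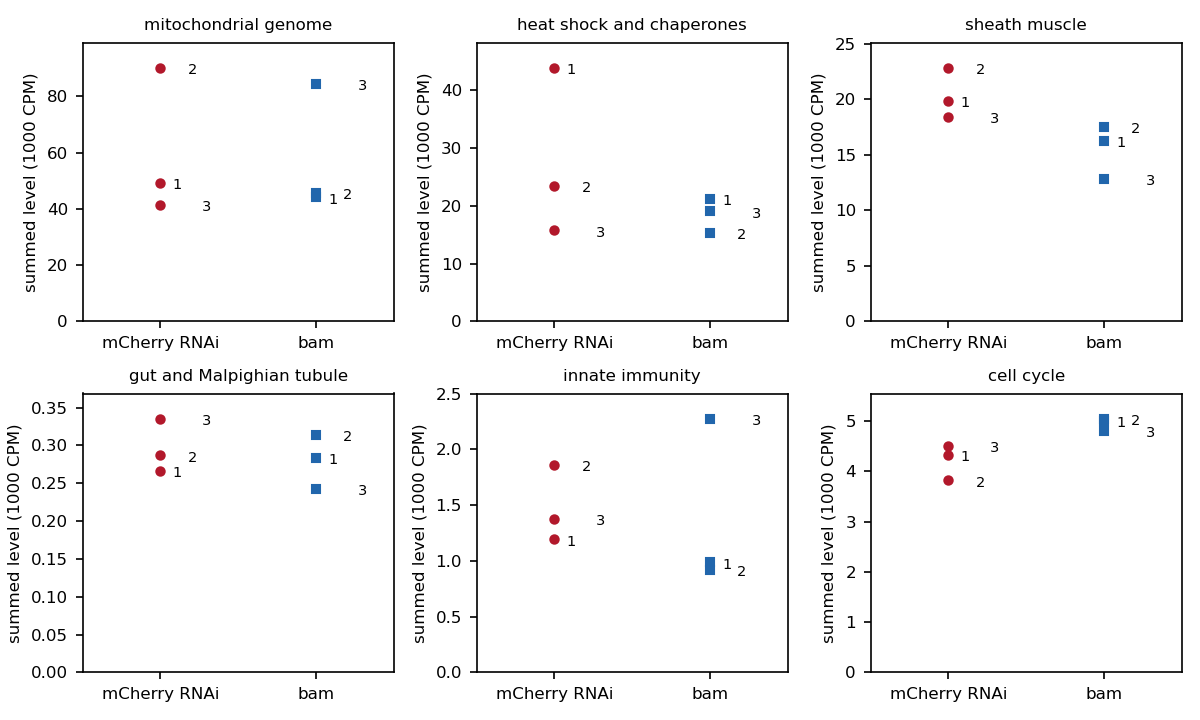
Summed level of 6 gene lists in each library, in 1000 CPM, with mCherry RNAi ovaries as red circles on the left and bam ovaries as blue squares on the right of each panel, and replicate numbers beside the points. mCherry RNAi replicate 2 and bam replicate 3 are the high libraries for the mitochondrial genome and immunity, mCherry RNAi replicate 1 is the high one for heat shock genes, and the groups do not overlap for the muscle and cell cycle lists.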

How the data were processed

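Polyadenylated RNA of dissected gonads was measured, and 200 ng per library went into an Illumina TruSeq RNA v2 kit, per the labels' protocols. The authors deposited 1 table per library with raw counts of reads for each gene, on build BDGP6. The submitters' processing notes name FastQC, DESeq, HTSeq 0.9.1, TopHat2 2.1.1 and Bowtie2 2.2.9. Strand and overlap settings of the counting are not stated there. The HTSeq summary lines, 12.05% to 17.09% of reads in the 6 libraries, were left out. Ensembl's BDGP6 annotation, possibly of another release than the counting used, gave symbols and positions. It matched 17253 of 17559 gene IDs, and 754 of 777 list entries matched.

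The 6 libraries were fitted with edgeR 4.0.16 in R 4.3.3 (filterByExpr, TMM scaling, the quasi-likelihood F test with robust dispersions, Benjamini-Hochberg adjusted p under 0.05). The SE is the size of the log2 fold change divided by the square root of F. Depth limits precision, and counting intervals cover counting error only. Alternatives were DESeq2 1.42.0, other scalings, filters and fold thresholds, a fit to all 12 libraries, a block for the replicate number, and fits without single libraries. The steps were tested on simulated data.

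The named genes were Sxl, CG15930, Phf7, bam, nanos, msl-2, w, v, y and ry, then the 12 largest called differences per direction without overlap whose higher group averaged 5 CPM or more, leaving out copies of near-identical families (Hsp70, histones, Sdic, Cyp12d1), which were summed, and up to 4 members per list with the smallest p. Other genes were named after their values were seen. Members and lists were chosen with earlier results of these data known. p-values weigh the difference between groups against the spread between these samples, which is estimated with information shared across genes.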

Additional observations from a re-analysis of the deposited data

How the results depend on the processing

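For the 376 higher and 231 lower genes, DESeq2 called 743 and 519 (372 and 230 shared), and a threshold of 1 on the size of the log2 fold change left 285 and 136. Deviations from the group means of same-numbered libraries correlated at 0.45, -0.45 and -0.34, and those of mCherry RNAi replicate 2 and bam replicate 3 at 0.62. The deviations within a group depend on each other, so these values cannot decide whether the replicate numbers of the titles pair the samples. With the number as a replicate block, 57 genes were called higher and 36 lower, all among the 607. Leaving out 1 library gave 89 to 279 higher and 64 to 170 lower genes. Leaving out mCherry RNAi replicate 2 and bam replicate 3 together, a setting chosen after the data were seen, gave 903 and 905. Between 334 and 413 genes were higher and 215 to 241 lower under the other scalings (relative log expression, upper quartile), other filters (none, 1 CPM) and the fit to all 12 libraries. The cause of these shifts was not tested.

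Among named genes, 4 that were not called changed sign. The log2 fold change of Phf7 ran between -0.14 (without mCherry RNAi replicate 3) and 0.087 (without mCherry RNAi replicate 2), was 0.031 without bam replicate 2 and 0.058 without the pair. The log2 fold change of Cp18 ran between -0.51 (without mCherry RNAi replicate 1) and 0.55, the log2 fold change of mt:ND6 between -0.028 (without mCherry RNAi replicate 2) and 0.62, and the log2 fold change of BigH1 between -0.38 and 0.015 (without bam replicate 3). Depth limits genes near 0 in a group, whose fold changes rest on few reads.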
